A study of Mus musculus with 8 samples.

Results

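Complexes I, III, IV and V of the mitochondrial respiratory chain were represented by 80 of the 19505 named genes measured on the arrays. The members are all genes whose platform symbol begins with Nduf and a subunit letter (a, b, c, s or v) and digit, with Uqcr, with Cox and a digit from 4 to 8, or with Atp5. Where a gene had several probe sets, the brightest over the 8 arrays was used. By these names 37 genes belong to complex I, 8 to complex III, 18 to complex IV and 17 to complex V, the ATP synthase.

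The arrays profiled total RNA of T cells from the spleens of 4 male wild-type C57BL/6 mice whose age the labels do not give. Both groups held unseparated CD4 and CD8 cells activated for 48 h with microbeads bearing anti-CD3 and anti-CD28, so the controls were activated cells too. One group of 4 arrays received PBS, the vehicle, and the other group of 4 received human beta-defensin-2 (hBD-2, an antimicrobial peptide of epithelia) at 60 µL/mL, a volume whose peptide content the labels do not give. The comparison asks what the peptide changes in activated T cells, and since the labels do not tie arrays to mice, p-values measure only the spread between these 4 and 4 samples, which may be technical.

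The respiratory chain passes electrons from NADH and from succinate through complexes I and II to ubiquinone, on through complex III to cytochrome c, and through complex IV to oxygen. Complexes I, III and IV pump protons across the inner mitochondrial membrane, and complex V lets them flow back and makes ATP. T cells that are activated through the antigen receptor grow, divide and raise both glycolysis and mitochondrial respiration. Most subunits are encoded in the nucleus and are the ones described here. A few of the catalytic ones are encoded in mitochondrial DNA, and none of the 13 entries for these was matched, so they were not analysed here.

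Most respiratory chain genes had somewhat lower values in cells kept with hBD-2, in each of the complexes. Values are deposited log2 array signals, and a fold change is the hBD-2 mean minus the PBS mean on that scale. Of the 80 members, 11 fell and 1 rose (limma, Benjamini-Hochberg adjusted p under 0.05 over all genes tested, n = 4 a group), which is 15% against 4.46% of all genes called in either direction. The falling members make up 13.75%, against 3.66% of all genes called lower. The members past the threshold that fell were Ndufv3, Ndufs7, Ndufa4 and Ndufa9 of complex I, Uqcrb of complex III, Cox6b1 and Cox7b of complex IV, and Atp5j2, Atp5mpl, Atp5c1 and Atp5o of complex V. The 1 that rose was Cox6b2, an isoform of complex IV. Changes of at least 1.5-fold were found for 3 members, Uqcrb, Ndufv3 and Cox6b2.

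Members that did not pass the threshold mostly lay below 0 as well. A log2 fold change below 0 was found for 69 of the 80 members (86.25%), against 46.1% of all genes. The median over the members was -0.24 (quartiles -0.33 and -0.11), with single values from -0.65 to 0.60, and the median over all genes was 0.02. In 36 members every hBD-2 array lay below every PBS array, which is 45% against 9.36% of all genes, and in 1 the order was reversed. Unadjusted limma p-values under 0.05 were found for 45 members (56.25%), against 22.3% of all genes, so most of these did not survive the adjustment. In the log2 fold changes plotted member by member, complexes III and V lie left of 0 almost throughout, while complex IV spreads to both sides.

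**Figure D1:**
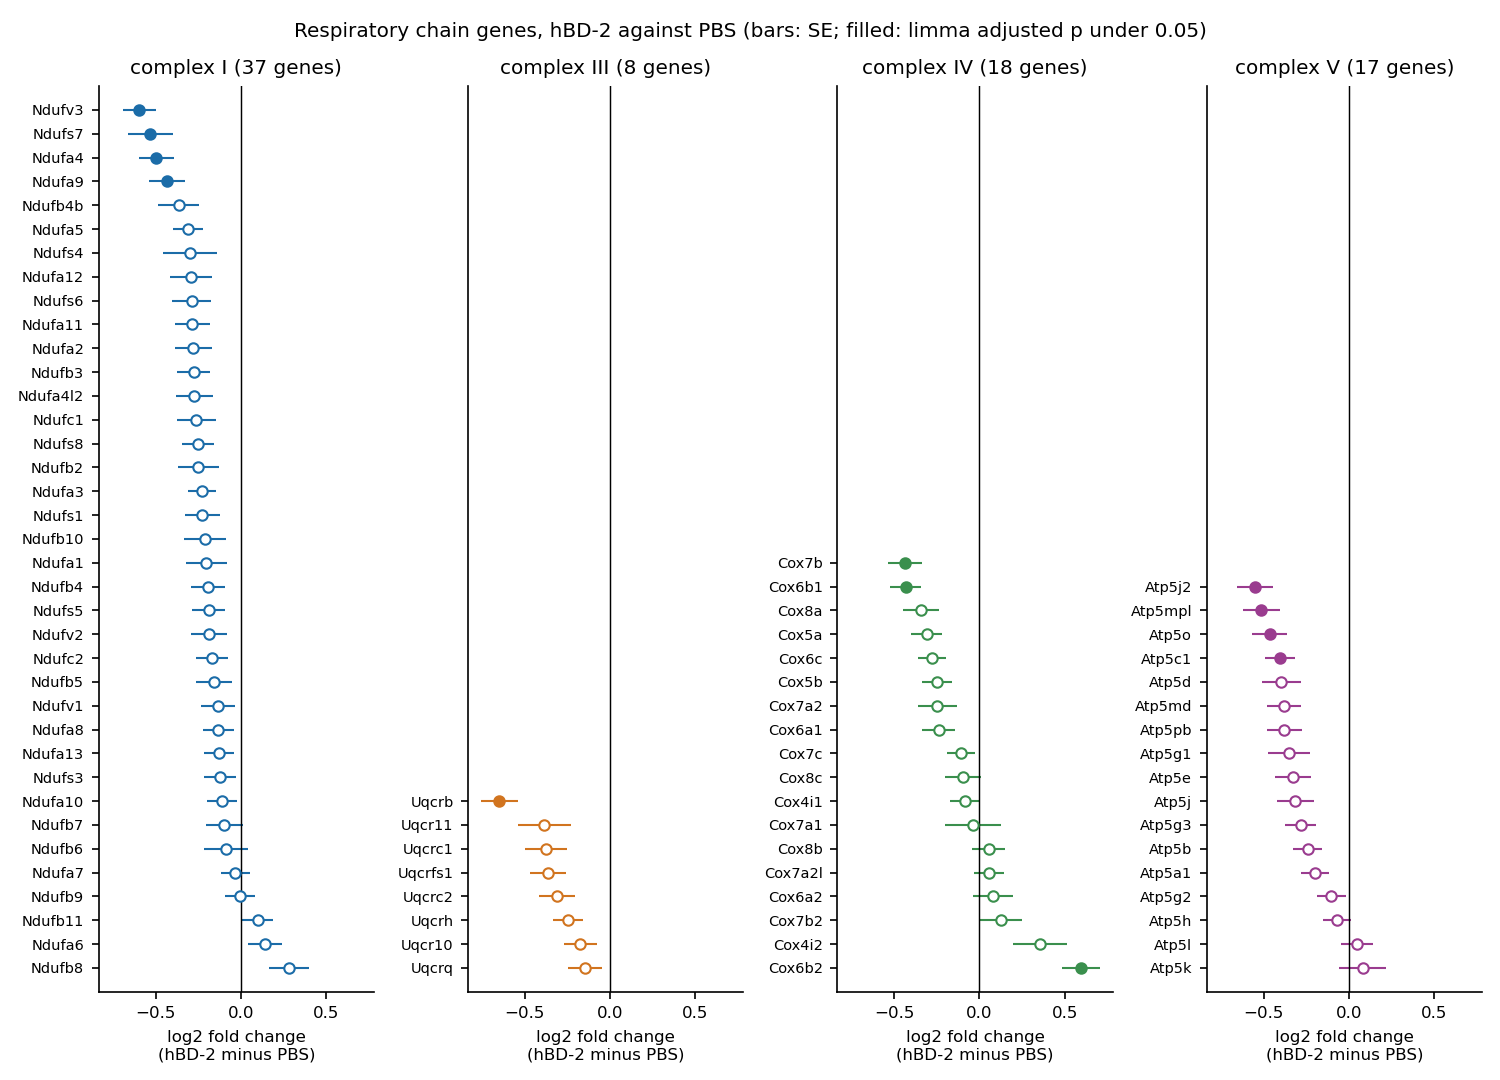
Log2 fold change (hBD-2 minus PBS, x axis) of each of the 80 members, 1 panel a complex, with the SE as a bar and filled points for limma adjusted p under 0.05. The values run from -0.65 (Uqcrb) to 0.60 (Cox6b2), and 69 of 80 points lie below 0.

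The number of members past the threshold depended on single arrays. Leaving out PBS replicate 1 or PBS replicate 2 gave 3, and leaving out PBS replicate 4 or either of hBD-2 replicates 3 and 4 gave 4. When hBD-2 replicate 1 was left out it was 19. Under quantile normalization it was 7 (6 fell and 1 rose). It was 36 with a variance trend in limma and 22 with dim genes left out. With that trend and without dim genes, 2032 and 1541 of all genes passed, against 869 in the main fit. For the other settings the count over all genes is not set beside that of the members. Whether these shifts are particular to the members was not tested. The median log2 fold change of all members lay between -0.26 and -0.21 when single arrays were left out.

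Array by array, the members' median deviation from each gene's PBS mean was 0.03, 0.02, -0.04 and -0.01 on PBS replicates 1 to 4. On hBD-2 replicates 1 to 4 it was -0.16, -0.14, -0.31 and -0.29. All of the hBD-2 arrays thus lay below all of the PBS arrays, and replicates 3 and 4 lay lowest. In 45 of 80 members (56.25%) hBD-2 replicates 3 and 4 were both below replicates 1 and 2, against 22.1% of all genes. The other two hBD-2 arrays also stood apart from PBS, with both below all 4 PBS arrays in 37 of 80 members (46.25%), against 13.3% of all genes. Without hBD-2 replicates 3 and 4 together, the median over the members was -0.16 and 1 member, Cox6b2, passed.

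**Figure D2:**
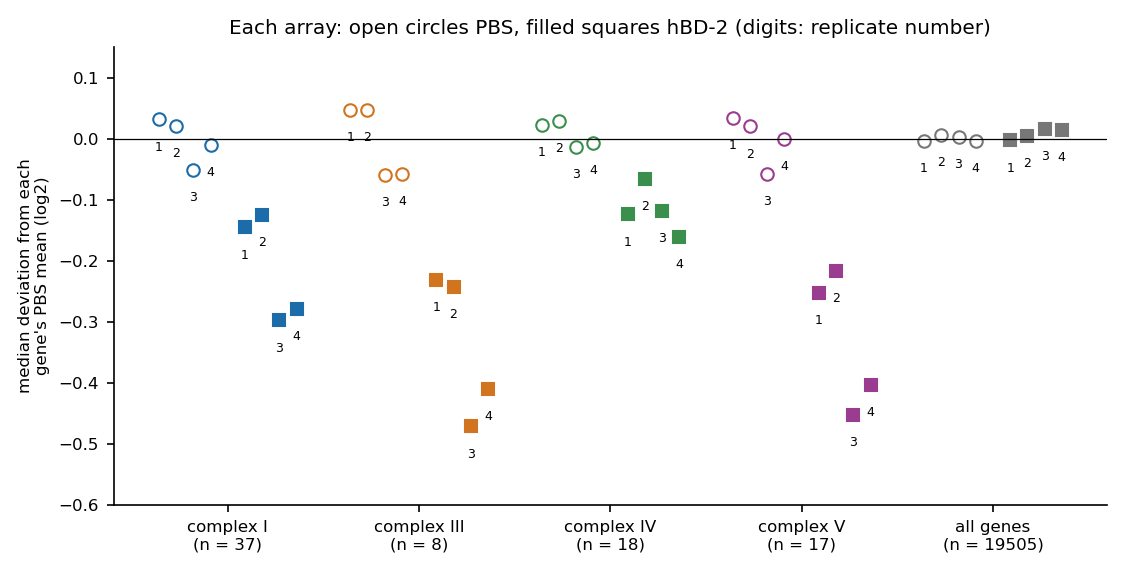
Median deviation from each gene's PBS mean (log2, y axis) on each of the 8 arrays, for the members of each complex and for all genes, with open circles for PBS, filled squares for hBD-2 and digits for the replicate number. For every complex the 4 hBD-2 arrays lie below the 4 PBS arrays, while the medians over all genes lie between -0.00361 and 0.0159.

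The spread of signals over a whole array ran alongside these values. Array medians lay between 5.30 and 5.42, and the interquartile range was 3.68 ± 0.0549 with PBS and 3.53 ± 0.0936 with hBD-2 (SD, n = 4; two-sided p = 0.0571 by an exact permutation test that cannot go below 0.0286). It was narrowest, 3.45 on both, in hBD-2 replicates 3 and 4. Among genes with a mean log2 signal from 9 to 11, the 33 members had a median log2 fold change of -0.28 with 32 below 0, and the 1275 other genes had a median of -0.07 with 63.2% below 0. From 7 to 9, the 27 members had a median of -0.25 and the other genes -0.08. Of those members, 7 fell at 9 to 11 and 3 at 7 to 9, against 9.25% and 7.42% of other genes. With each array's trend against signal level removed, the median over the members was -0.17, 68 of 80 stayed below 0 and 10 were past the threshold. Repeating quantile normalization gave -0.16 and 65 below 0, and cyclic loess -0.17 and 66 below 0. The median of the members thus kept its sign under these 3 scalings and was smaller in size.

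**Figure D3:**
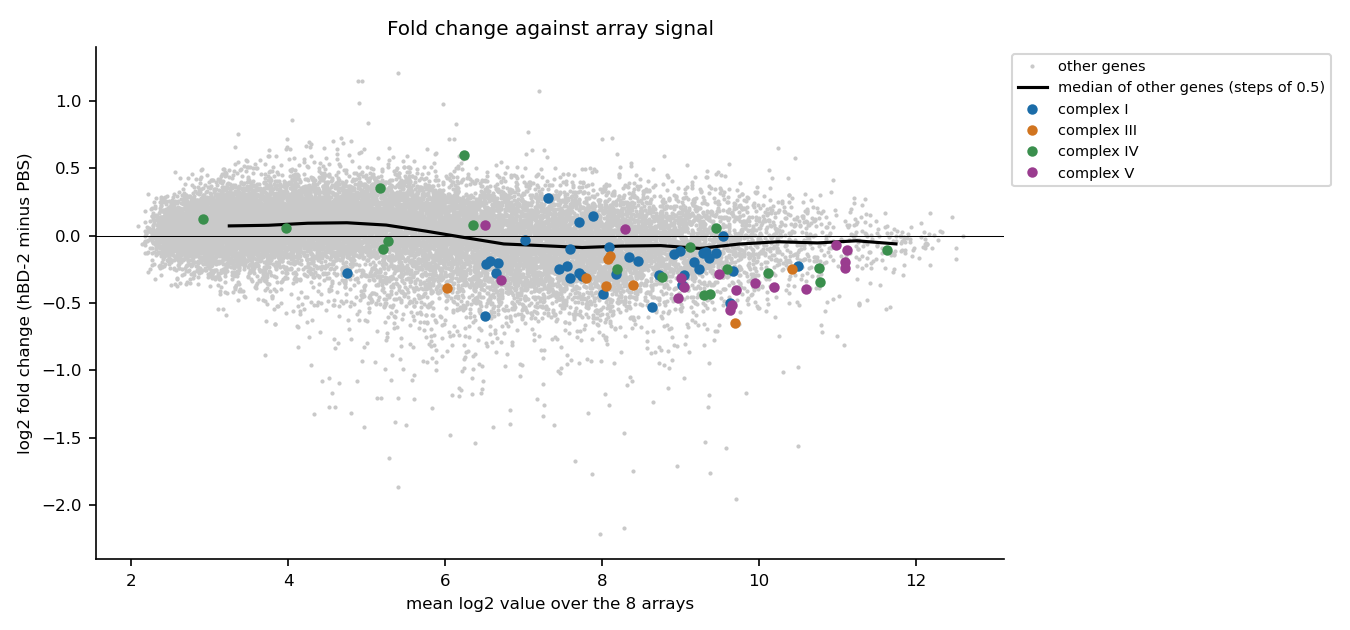
Log2 fold change (hBD-2 minus PBS, y axis) against the mean log2 signal over the 8 arrays (x axis) for all genes (grey) and the members coloured by complex, with the running median of the other genes as a line. Of the 33 members between 9 and 11, 32 lie below 0, where the other genes have a median of -0.07.

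Cell type markers were read on the same arrays. All 12 T cell markers were measured, and their mean log2 signal was 10.25 to 10.34 over the PBS arrays and 10.27 to 10.36 over the hBD-2 arrays, with none past the threshold. The 6 matched B cell markers averaged 4.49 to 5.56 and 4.55 to 6.23, with 6 of 6 fold changes above 0 and none past the threshold. In both groups Cd79a, Ms4a1, Cd22 and Pax5 were higher on replicates 2 and 4 than on replicates 1 and 3. For Cd79b and Blk this order held with hBD-2 but not with PBS. Cd22 read 5.36 and 5.91 on PBS replicates 2 and 4, and at most 4.32 on PBS replicates 1 and 3. On the hBD-2 arrays it read 6.08 and 5.93, and at most 4.15. The source of this spread between replicates was not tested. Of 6 matched myeloid markers 1 fell, against 3.66% of all genes called lower. This was Itgam, at -0.62 (limma adjusted p = 0.0461) and a mean signal of 4.30. The list was mixed in direction, with 3 of 6 below 0. Lyz2 differed by 0.52 (limma adjusted p = 0.287) and Cd14 by 0.32 without overlap (limma adjusted p = 0.0740). The list averaged 3.83 to 4.10 and 3.76 to 4.07, near the arrays' lower quartiles of 3.62 to 3.78. The 3 matched erythroid and megakaryocyte markers averaged 5.57 to 6.00 and 5.84 to 6.19, with 0 fold changes below 0 and none past the threshold. Among them Itga2b differed by 0.47 without overlap (limma adjusted p = 0.0632). The 3 matched NK cell markers averaged 4.89 to 5.02 and 4.66 to 5.04, with none past the threshold. This average joins unlike levels. Ncr1 and Klrb1c had overall means of 2.93 and 2.98, under the arrays' lower quartiles, and Eomes had 8.80. The part of other cells in the respiratory chain values was not tested, and in bulk RNA fewer cells of a type and less RNA per cell cannot be told apart.

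Complex I, which takes electrons from NADH and passes them to ubiquinone, was lower by a median of -0.21 over its 37 genes. Of these 4 fell, none rose and 33 did not pass, with 34 below 0 and 11 without overlap between the groups, all lower with hBD-2. Under quantile normalization 31 lay below 0, with Ndufa7, Ndufb6 and Ndufb9 turning sign.

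Ndufv3, an accessory subunit of the arm that oxidises NADH, had log2 signals of 6.95, 6.86, 6.80 and 6.64 on PBS replicates 1 to 4 and of 6.33, 6.25, 6.10 and 6.19 on hBD-2 replicates 1 to 4. The groups were separated by a gap and every hBD-2 array was low. It fell 1.51-fold (log2 fold change -0.60 with an SE of 0.0981, limma adjusted p = 0.00739) and stayed past the threshold whichever single array was left out. Ndufs7, a core subunit holding the last iron-sulphur cluster before ubiquinone, measured 8.94, 8.92, 8.89 and 8.86 with PBS and 8.66, 8.58, 8.02 and 8.23 with hBD-2. The PBS arrays were tight, and hBD-2 replicates 3 and 4 were well below replicates 1 and 2. It fell 1.44-fold (log2 fold change -0.53 with an SE of 0.135, limma adjusted p = 0.0484).

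The other core subunits encoded in the nucleus did not pass, but all lay below 0. Median log2 fold change over the 6 matched core genes was -0.21. In the part that oxidises NADH, Ndufv1, which binds NADH and the flavin, was at 8.98 ± 0.0830 with PBS and 8.85 ± 0.147 with hBD-2 (SD, n = 4), a difference of -0.13 (limma adjusted p = 0.471). Its neighbours Ndufv2 and Ndufs1, both iron-sulphur proteins, differed by -0.19 (limma adjusted p = 0.321) and -0.23 (limma adjusted p = 0.216). Toward ubiquinone, Ndufs3 differed by -0.12 (limma adjusted p = 0.485) and the iron-sulphur protein Ndufs8 by -0.25 (limma adjusted p = 0.155). In all 5 of these genes the groups overlapped.

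Accessory subunits surround the core and are needed to build and hold it. Ndufa9, which sits near the ubiquinone site, read 8.43, 8.18, 8.16 and 8.16 with PBS and 7.92, 7.86, 7.84 and 7.58 with hBD-2. PBS replicate 1 stood above the other PBS arrays and hBD-2 replicate 4 was lowest, without overlap. It fell 1.35-fold (log2 fold change -0.43 with an SE of 0.107, limma adjusted p = 0.0441). In the gene table used 26 of the 80 members have a span that another gene overlaps. Among the members past the threshold these are Ndufa9 (by 1700018A23Rik), Ndufs7 (by n-TNgtt7) and Atp5c1 (by Gm23608). Strand, exons and probe positions were not compared, so whether the probes also read the other gene was not tested. Among the 12 Ndufa accessory genes 11 lay below 0 with a median of -0.22, and 1 fell. Next smallest in p among complex I genes was Ndufa5 at 7.75 ± 0.0222 with PBS and 7.44 ± 0.104 with hBD-2, a difference of -0.31 (limma adjusted p = 0.0702). Over the 11 Ndufb genes of the membrane arm the median was -0.16, 9 lay below 0 and none passed. The near-identical copies Ndufb4 and Ndufb4b, whose probes may not tell them apart, had log2 fold changes of -0.19 and -0.37. Against the direction of the complex, Ndufb8 was at 7.17 ± 0.135 with PBS and 7.46 ± 0.202 with hBD-2, a difference of 0.28 (limma adjusted p = 0.186), and Ndufa6 differed by 0.14 (limma adjusted p = 0.422). Neither passed the threshold.

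Ndufa4 carries a complex I name but is now counted among the subunits of complex IV. Its log2 signals were 9.92, 9.83, 9.78 and 10.01 on the PBS arrays and 9.56, 9.45, 9.19 and 9.35 on the hBD-2 arrays. Every hBD-2 array lay below the PBS arrays, with replicate 3 lowest. It fell 1.41-fold (log2 fold change -0.50 with an SE of 0.104, limma adjusted p = 0.0238). Its paralogue Ndufa4l2, a gene known to be induced by low oxygen, was at 4.89 ± 0.166 with PBS and 4.62 ± 0.122 with hBD-2, a difference of -0.27 (limma adjusted p = 0.166), also without overlap.

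The calls of Ndufs7, Ndufa4 and Ndufa9 depended on single arrays. Ndufa4 was lost without PBS replicate 1, 2 or 4 or hBD-2 replicate 3 or 4 (highest limma adjusted p = 0.0766). Ndufs7 was lost without any 1 PBS array or hBD-2 replicate 3 or 4 (highest 0.128), and Ndufa9 without any single array except hBD-2 replicate 1 (highest 0.122). Ndufs7 and Ndufa9 were also lost under quantile normalization, cyclic loess and removal of the level trend.

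Complex III, which hands electrons from ubiquinol to cytochrome c, was lower in all 8 of its member genes, with a median log2 fold change of -0.34. Of these 1 fell and 7 did not pass, and in 5 the groups did not overlap. All 8 stayed below 0 under quantile normalization (median -0.24), cyclic loess (-0.25) and removal of the level trend (-0.25).

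Uqcrb, a small subunit at the ubiquinone-binding site, had log2 signals of 10.05, 10.06, 9.96 and 10.01 with PBS and of 9.59, 9.35, 9.10 and 9.44 with hBD-2. The PBS arrays lay close together, and each hBD-2 array was below them. The fall was 1.57-fold (log2 fold change -0.65 with an SE of 0.109, limma adjusted p = 0.00811), the largest among the members, and it passed the threshold whichever single array was left out.

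The 3 core genes of complex III among the members did not pass, but in each of them the groups did not overlap, and their median was -0.36. A further core subunit, cytochrome c1, has a gene whose name the member rule does not take in, Cyc1, and it differed by -0.04 (limma adjusted p = 0.874) with overlap. Uqcrfs1, the Rieske iron-sulphur protein, measured 8.52, 8.82, 8.58 and 8.40 with PBS and 8.24, 8.33, 8.14 and 8.16 with hBD-2, a difference of -0.36 (limma adjusted p = 0.0760). Uqcrc1 and Uqcrc2, the large core proteins facing the matrix, differed by -0.38 (limma adjusted p = 0.108) and -0.31 (limma adjusted p = 0.112). For both, hBD-2 replicates 3 and 4 were the lowest arrays. Among the other small subunits, the hinge protein gene Uqcrh differed by -0.25 (limma adjusted p = 0.131) without overlap, and Uqcr11 by -0.39 (limma adjusted p = 0.174), Uqcr10 by -0.18 (limma adjusted p = 0.309) and Uqcrq by -0.15 (limma adjusted p = 0.410) with overlap.

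Complex IV, cytochrome c oxidase, has subunits with an isoform found in most tissues and others known from particular tissues, and the values of these differed. All 10 general isoforms were below 0, with a median log2 fold change of -0.26, and 2 fell, 8 did not pass and in 8 the groups did not overlap. The 7 tissue isoforms had a median of 0.08, with 2 below 0, 1 that rose and 6 that did not pass. Cox7a2l, described as a factor for supercomplexes of complexes III and IV, was at 9.43 ± 0.101 with PBS and 9.48 ± 0.0378 with hBD-2, a difference of 0.05 (limma adjusted p = 0.762). Whether it has that role in this mouse strain was not examined. Over all 18 genes the median was -0.10, and it was -0.17 when dim genes, 2 of the tissue isoforms, were left out. Under quantile normalization and cyclic loess Cox4i1 turned to above 0, and Cox8b to below 0. Mean signals ran from 8.20 to 11.64 for the general isoforms and from 2.92 to 6.35 for the tissue isoforms. Other genes with a mean under 5 had a median log2 fold change of 0.07, and the part of signal level in the isoform difference was not tested.

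Cox6b1 encodes a subunit on the outer face of the enzyme, where it helps hold the dimer together. It measured 9.62, 9.51, 9.61 and 9.63 on the PBS arrays and 9.31, 9.18, 9.05 and 9.09 on the hBD-2 arrays. PBS replicate 2 was the lowest of its group and still above every hBD-2 array. It fell 1.35-fold (log2 fold change -0.43 with an SE of 0.0918, limma adjusted p = 0.0252).

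Cox6b2, the paralogue known mainly from testis, went the other way. Its log2 signals were 5.79, 6.04, 5.89 and 6.05 with PBS and 6.67, 6.59, 6.28 and 6.61 with hBD-2. Each hBD-2 array was above each PBS array, with replicate 3 the lowest of the 4. The rise was 1.51-fold (log2 fold change 0.60 with an SE of 0.111, limma adjusted p = 0.0122), it passed whichever single array was left out, and it passed without hBD-2 replicates 3 and 4 together. Its signals stood above the arrays' lower quartiles of 3.62 to 3.78, and no other gene overlaps it in the gene table used.

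Cox7b, a small membrane subunit, read 9.63, 9.55, 9.35 and 9.54 with PBS and 9.23, 9.10, 8.98 and 8.99 with hBD-2. The lowest PBS array, replicate 3, was still above every hBD-2 array. The fall was 1.35-fold (log2 fold change -0.44 with an SE of 0.0992, limma adjusted p = 0.0327). Its paralogue Cox7b2, known from testis, was at 2.85 ± 0.252 with PBS and 2.98 ± 0.0881 with hBD-2, under the arrays' lower quartiles, where a change may not show.

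In the remaining isoform families no member passed. Cox4i1, the general form of the regulatory subunit that binds ATP, differed by -0.08 (limma adjusted p = 0.615), and Cox4i2, its lung isoform, by 0.35 (limma adjusted p = 0.217). Cox6a1 differed by -0.24 (limma adjusted p = 0.183) without overlap and its heart and muscle isoform Cox6a2 by 0.08 (limma adjusted p = 0.734). Of the Cox7a pair, the general Cox7a2 differed by -0.25 (limma adjusted p = 0.234) and the muscle form Cox7a1 by -0.04 (limma adjusted p = 0.917). Among the Cox8 genes, Cox8a was at 10.95 ± 0.136 with PBS and 10.61 ± 0.135 with hBD-2, a difference of -0.35 (limma adjusted p = 0.0863) without overlap, while the muscle form Cox8b differed by 0.05 (limma adjusted p = 0.785) and the testis form Cox8c by -0.10 (limma adjusted p = 0.629). Cox6c and Cox5a, subunits without such isoforms here, differed by -0.28 (limma adjusted p = 0.0796) and -0.31 (limma adjusted p = 0.0831), both without overlap. In the plot of isoforms by array, the first gene of each family lies at or below its PBS mean on most hBD-2 arrays. All 4 hBD-2 arrays lie above the PBS mean for Cox6b2, Cox4i2 and Cox7b2, and the other tissue isoforms scatter about theirs.

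**Figure D4:**
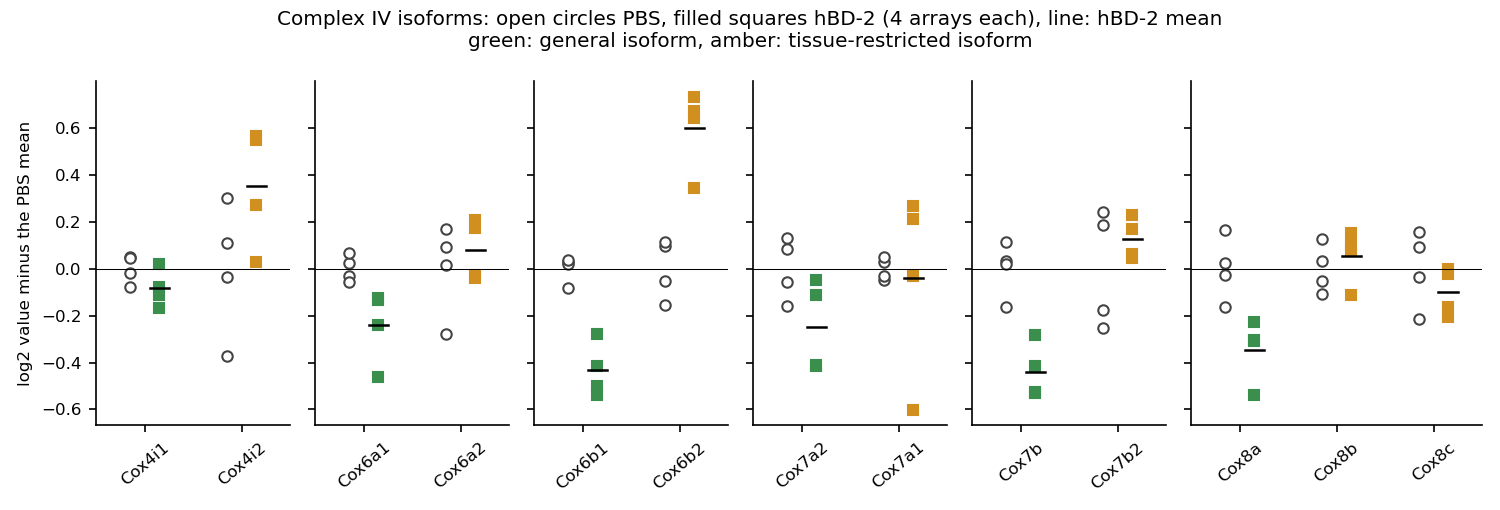
Log2 signal minus the gene's PBS mean (y axis) for the complex IV isoform families, with open circles for the 4 PBS arrays, filled squares for the 4 hBD-2 arrays (green for the general and amber for the tissue isoform) and a line at the hBD-2 mean. The hBD-2 arrays of Cox6b1 all lie below its PBS arrays (log2 fold change -0.43) and those of Cox6b2 all above (0.60).

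The calls of Cox6b1 and Cox7b depended on single arrays. Cox6b1 was lost without any 1 PBS array or hBD-2 replicate 3 or 4 (highest limma adjusted p = 0.0763). Cox7b was lost without PBS replicate 1, 2 or 4 or hBD-2 replicate 2, 3 or 4 (highest 0.0994), and under quantile normalization.

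Promoter sequence was available for 66 of the 80 members as the 250 bases before the start of transcription (RefSeq, GRCm38.p6). The windows of Cox6b1 and Cox6b2 are shown because these paralogues moved in opposite directions, and that of Cox6a1 because it holds the motif that was more frequent among members. Capitals mark matches, on either strand, to the CCAAT box (CCAAT) and to an NRF1-like motif (GCGCANGCG), NRF1 being a factor known to drive many respiratory chain genes. Cox6b1 lies on the minus strand at chr7:30626115-30626364, Cox6b2 on the minus strand at chr7:4753095-4753344 and Cox6a1 on the minus strand at chr5:115348959-115349208.
Cox6b1: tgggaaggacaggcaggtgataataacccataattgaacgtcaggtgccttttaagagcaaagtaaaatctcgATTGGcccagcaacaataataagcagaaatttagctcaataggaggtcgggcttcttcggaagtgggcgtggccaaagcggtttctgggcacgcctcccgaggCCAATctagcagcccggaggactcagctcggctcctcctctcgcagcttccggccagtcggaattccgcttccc
Cox6b2: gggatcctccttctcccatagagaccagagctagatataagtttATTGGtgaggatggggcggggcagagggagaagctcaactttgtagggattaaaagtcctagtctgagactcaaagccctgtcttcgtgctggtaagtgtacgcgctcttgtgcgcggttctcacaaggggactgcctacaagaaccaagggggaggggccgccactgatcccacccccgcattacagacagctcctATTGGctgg
Cox6a1: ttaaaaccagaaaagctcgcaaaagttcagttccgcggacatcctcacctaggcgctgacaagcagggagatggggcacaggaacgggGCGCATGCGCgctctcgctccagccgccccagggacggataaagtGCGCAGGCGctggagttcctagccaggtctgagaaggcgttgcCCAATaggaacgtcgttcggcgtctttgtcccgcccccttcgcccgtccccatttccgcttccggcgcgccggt
Cox6b1 and Cox6b2 each hold 2 CCAAT boxes and no NRF1-like match, and their GC contents are 54.0% and 54.8%. Cox6a1 holds 1 CCAAT box and 3 NRF1-like matches, a pair of which overlap on opposite strands, at a GC content of 62.8%.

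Across the members, the NRF1-like motif was found for 12 of the 66 with a window (18.2%), against 8.43% of the 15691 tested genes with a window. A gene with more than 1 window counted as holding a motif if any of its windows did. A CCAAT box was in 28 (42.4%), against 39.2%. The ETS-like motif CCGGAAGT was in 3 (4.55%, against 4.43%) and the YY1-like motif AAGATGGC in 1 (1.52%, against 1.78%). The core of the hypoxia element, ACGTG, was in 13 (19.7%, against 20.6%), and the E-box CACGTG, which contains it, in 6 (9.09%, against 7.92%). Median GC content was 55.0% in the members and 56.0% in all tested genes. Of the 11 members that fell, 9 had a window, and 1 of these held the NRF1-like motif and 5 a CCAAT box. A match describes the letters of the window and is not a measured binding site.

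Complex V, the ATP synthase, was lower in 15 of its 17 genes, with a median log2 fold change of -0.33. Of these 4 fell, none rose and 13 did not pass, and in 12 the groups did not overlap. The genes above 0 were Atp5k and Atp5l, 2 small membrane subunits, and Atp5h joined them under quantile normalization and cyclic loess.

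The 5 genes of the catalytic head and central stalk were all below 0 without overlap, at a median of -0.33, and 1 fell. Atp5c1, the gamma subunit that turns inside the head, measured 9.99, 9.93, 9.83 and 9.89 with PBS and 9.61, 9.53, 9.41 and 9.46 with hBD-2. Each hBD-2 array was low, replicate 3 most. It fell 1.32-fold (log2 fold change -0.40 with an SE of 0.0886, limma adjusted p = 0.0286). The catalytic beta subunit Atp5b was at 11.23 ± 0.0573 with PBS and 10.98 ± 0.0650 with hBD-2, a difference of -0.24 (limma adjusted p = 0.128), and the alpha subunit Atp5a1 differed by -0.20 (limma adjusted p = 0.195). Atp5d and Atp5e, the small subunits at the foot of the stalk, differed by -0.40 (limma adjusted p = 0.0751) and -0.33 (limma adjusted p = 0.0943).

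The peripheral stalk keeps the head from turning with the rotor. Atp5o, the subunit at its top known as OSCP, measured 9.24, 9.33, 9.15 and 9.11 with PBS and 8.94, 8.79, 8.59 and 8.65 with hBD-2. Replicates 3 and 4 were the lowest hBD-2 arrays and no hBD-2 array reached the PBS range. It fell 1.38-fold (log2 fold change -0.47 with an SE of 0.103, limma adjusted p = 0.0297). Its neighbours Atp5pb and Atp5j differed by -0.38 (limma adjusted p = 0.0646) and -0.31 (limma adjusted p = 0.120) without overlap of the groups, and Atp5h by -0.07 (limma adjusted p = 0.678). In the c-ring, which turns as protons pass, 3 genes encode the same mature protein. Atp5g1, Atp5g2 and Atp5g3 differed by -0.35 (limma adjusted p = 0.123), -0.10 (limma adjusted p = 0.518) and -0.28 (limma adjusted p = 0.101), and only Atp5g3 of the 3 was without overlap.

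Small membrane subunits hold the synthase in dimers at the folds of the inner membrane. Atp5j2, subunit f, read 9.95, 9.94, 9.85 and 9.92 with PBS and 9.58, 9.46, 9.23 and 9.18 with hBD-2. The PBS arrays were tight, and hBD-2 replicates 3 and 4 were lower than 1 and 2. It fell 1.46-fold (log2 fold change -0.55 with an SE of 0.105, limma adjusted p = 0.0151). Its promoter window, on the minus strand at chr5:145191542-145191791 (GRCm38.p6), is shown because this was the largest fall in complex V, with capitals again marking a CCAAT box and no NRF1-like match found.
Atp5j2: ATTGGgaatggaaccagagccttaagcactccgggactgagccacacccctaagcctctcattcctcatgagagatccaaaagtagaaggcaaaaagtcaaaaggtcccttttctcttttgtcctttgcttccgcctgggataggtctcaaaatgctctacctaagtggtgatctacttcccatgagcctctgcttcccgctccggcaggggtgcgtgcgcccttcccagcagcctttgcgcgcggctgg
Atp5mpl, a small proteolipid of the synthase, measured 9.88, 9.93, 9.85 and 10.03 with PBS and 9.63, 9.44, 9.38 and 9.19 with hBD-2. It fell 1.43-fold (log2 fold change -0.51 with an SE of 0.107, limma adjusted p = 0.0229), with hBD-2 replicate 4 lowest. Atp5md, a subunit that stabilises dimers, differed by -0.38 (limma adjusted p = 0.0556) without overlap. Atp5k, subunit e, was at 6.47 ± 0.0928 with PBS and 6.55 ± 0.301 with hBD-2, a difference of 0.08 (limma adjusted p = 0.776), and Atp5l, subunit g, differed by 0.05 (limma adjusted p = 0.815).

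Leaving out 1 array ended these calls as follows. Atp5j2 was lost without PBS replicate 1 or 2 (highest limma adjusted p = 0.0520), and Atp5mpl without PBS replicate 1, 2 or 4 or hBD-2 replicate 3 or 4 (0.0756). Atp5c1 and Atp5o were lost without PBS replicate 1, 2 or 4 or hBD-2 replicate 2, 3 or 4 (0.0896 and 0.0946), and under quantile normalization.

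**Figure D5:**
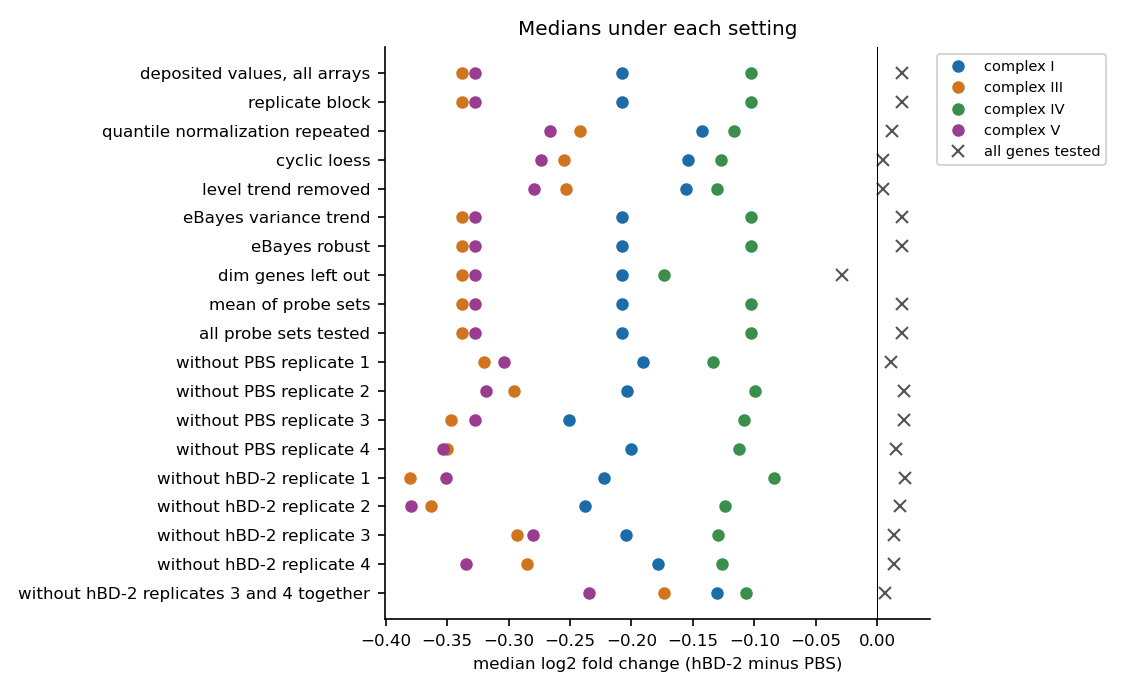
Median log2 fold change (hBD-2 minus PBS, x axis) of the members of each complex, coloured, and of all genes tested, crosses, under each setting (y axis). The medians of complexes I, III, IV and V stay below 0 in every setting shown, from -0.08 for complex IV to -0.38 for complexes III and V when single arrays are left out.

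Other genes that serve the chain were read from 8 lists. Beside the counts for each list, 3.66% of all genes were called lower and 46.1% had a log2 fold change below 0. Complex II and the electron carriers were lower in 10 of 10 measured genes, with a median log2 fold change of -0.33, and 1 fell. This was Sdhd, a membrane anchor of complex II, at 8.92, 8.86, 8.85 and 8.92 with PBS and 8.47, 8.42, 7.95 and 8.31 with hBD-2. The fall was 1.52-fold (log2 fold change -0.60 with an SE of 0.117, limma adjusted p = 0.0162), and it was lost without PBS replicate 1 or 4 (highest limma adjusted p = 0.0543). Of 12 coenzyme Q synthesis genes 11 lay below 0 (median -0.14) and 1 fell. Coq7, the hydroxylase of the pathway, fell 1.81-fold (log2 fold change -0.86 with an SE of 0.176, limma adjusted p = 0.0215), lost without PBS replicate 1 or 2 or hBD-2 replicate 3 or 4 (0.0702).

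Assembly factors guide the building of each complex. Few of them were called, and 3.66% of all genes were called lower. Of 15 complex I assembly factors 1 fell, Ecsit, at -0.41 (limma adjusted p = 0.0455), and the median was -0.14. Of 24 factors for complexes III and IV, 2 fell at a median of -0.12, namely Bcs1l, which inserts the Rieske protein, at -0.45 (limma adjusted p = 0.0357), and Cox19, which acts in copper supply, at -0.40 (limma adjusted p = 0.0382). None of 5 genes for ATP synthase assembly and inhibition passed (median -0.10), and the 2 with the smallest p, Atpaf2 and the inhibitor Atpif1, differed by -0.49 (limma adjusted p = 0.100) and -0.27 (limma adjusted p = 0.129). Ecsit was lost without any single array except PBS replicate 3 or hBD-2 replicate 1, and Bcs1l and Cox19 without any except hBD-2 replicate 1 (highest limma adjusted p = 0.125, 0.107 and 0.114). All 3 were lost under quantile normalization, and Ecsit and Bcs1l also under cyclic loess and removal of the level trend.

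Carriers that exchange ADP, ATP and phosphate fell in 2 of 7 genes, at a median of -0.26. These were Slc25a5, an adenine nucleotide translocator, at -0.35 (limma adjusted p = 0.0432), and Vdac1, the outer membrane channel, at -0.45 (limma adjusted p = 0.0446). Both were lost without any single array except hBD-2 replicate 1 (highest limma adjusted p = 0.113 and 0.119), and under quantile normalization, cyclic loess and removal of the level trend. The 17 regulators of respiratory gene transcription had none past the threshold and a median of -0.02. Gabpb2 and Mterf1a had the smallest p among them and differed by -0.31 (limma adjusted p = 0.152) and 0.22 (limma adjusted p = 0.161), and Nrf1 itself differed by -0.21 (limma adjusted p = 0.299).

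Mitochondrial genes linked to low oxygen (hypoxia) formed the list with the most falls among these 8. Of 9 such genes 7 fell and none rose (limma), with a median log2 fold change of -0.63, against 3.66% of all genes called lower. The count depends on which genes were listed. Ndufa4l2, known to be induced by low oxygen, is not in this list and did not pass (-0.27, limma adjusted p = 0.166). Mgarp, a mitochondrial protein linked to hypoxia, measured 6.14, 6.19, 6.27 and 5.87 with PBS and 4.21, 4.33, 4.19 and 5.13 with hBD-2. It fell 3.14-fold (log2 fold change -1.65 with an SE of 0.190, limma adjusted p = 0.000927), and hBD-2 replicate 4 was well above the other hBD-2 arrays. Higd1a, which binds complex IV, fell 1.90-fold (log2 fold change -0.93 with an SE of 0.124, limma adjusted p = 0.00215). The mitophagy receptors Bnip3 and Bnip3l fell 1.97-fold and 1.63-fold (limma adjusted p = 0.00494 and 0.00219). Those 4 genes passed whichever single array was left out. Higd2a, a complex IV factor, and Lonp1, the matrix protease, fell 1.45-fold and 1.55-fold (limma adjusted p = 0.0220 and 0.0351), lost without PBS replicate 1, 2 or 4 or hBD-2 replicate 3 or 4 (highest 0.0722 and 0.100).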

How the data were processed

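Log2 values of 22203 probe sets on 8 arrays were deposited by the authors in a single table. Per the submitters' processing notes these were made with oligo and RMA, which removes background, makes arrays comparable and joins the probes of a set. The sources used here name no versions, settings or annotation build. RMA draws low signals towards a floor, so fold changes of dim genes are understated, and the number of arrays limits the precision. All 8 columns were used.

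The platform's annotation gave 1 symbol for each of 19572 probe sets, and 2631 are not listed there and stay unnamed. Of several probe sets, which 55 genes had, the brightest on average stood for the gene, leaving 19505 genes. Dim genes were kept. hBD-2 was compared with PBS without a block, by lmFit and eBayes of limma 3.58.1 (R 4.3.3). Tests were two-sided, and p-values were adjusted over all genes by Benjamini-Hochberg, with 0.05 as the threshold. SE is that of the fit.

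On simulated data of this comparison (19505 genes, 50 seeded at each size) the fit found 4% of the 1.25-fold changes and 42% at 1.5-fold. At 2-fold it found 96% and at 3-fold all 100%, with 4 false calls. In all 200 genes were seeded, fewer than the 869 called in the data. The p-value needed to pass the adjusted threshold depends on how many genes change, so these shares may differ in the data.

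Members, gene lists and tests were chosen with earlier results of these data known. Named genes are all members past the threshold, the 4 smallest p of each complex and up to 2 members of opposite sign, isoform families, catalytic core subunits, and up to 6 called genes of each list or its 2 smallest p. Genes named beyond these (Nrf1, Cyc1, single cell type markers such as Itgam, and members that complete a subunit group or turn sign) were chosen after their values were seen. Promoter windows were matched by gene and scanned on both strands (Python 3.11.15). Alternatives were another scaling, variance model, filter, probe set rule, the replicate number as a block, and arrays left out.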

Additional observations from a re-analysis of the deposited data

Results flagged for a closer look

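In 9 of 128 groups of 4 arrays tested, for named genes and for the medians of the complexes, 1 array stood far from the other 3 by Dixon's criterion. Chance gives such a distance in about 1 in 20 groups. For the members, PBS replicate 2 was apart for Atp5g2 at 11.23 (others 11.16), for Cox6b1 at 9.51 (others 9.61 to 9.63) and for Ndufa6 at 7.61 (others 7.88 to 7.91). PBS replicate 1 was apart for Ndufa9 at 8.43 (others 8.16 to 8.18), and PBS replicate 3 for Ndufs1 at 7.48 (others 7.71 to 7.75). For other mitochondrial genes, hBD-2 replicate 3 was apart for Slc25a5 at 11.10 (others 11.28 to 11.30) and for Gabpb2 at 7.05 (others 7.48 to 7.54). hBD-2 replicate 4 was apart for Mgarp at 5.13 (others 4.19 to 4.33), and PBS replicate 3 for Higd2a at 9.17 (others 9.30 to 9.33).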

How the results depend on the processing

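The 12 members past the threshold became 7 with quantile normalization repeated, 36 with a variance trend and 22 with dim genes left out. The count was 1 without hBD-2 replicates 3 and 4 together, and between 3 and 19 when single arrays were left out. These counts are given without those over all genes, so whether the shifts are particular to the members was not tested. With the replicate number as a block the count was 12, and all 12 were shared. Arrays of the same number in both groups deviated together with r = 0.18, 0.0585, 0.159 and 0.00482 across genes for numbers 1 to 4. Between arrays of different numbers r ran from -0.154 to 0.0906. hBD-2 replicates 1, 2 and 3 correlated best with the PBS array of their own number, and replicate 4 did not. The labels do not tie arrays to mice, so the main fit did not pair them. A shared mouse or preparation for each number remains possible. The block ended the calls of 4 genes of the other lists (Ecsit, Cox19, Slc25a5 and Vdac1). The median log2 fold change of all members, -0.24, became -0.16 with quantile normalization, -0.17 with cyclic loess and -0.17 once the level trend was removed. It was -0.16 without hBD-2 replicates 3 and 4. Without those arrays it was -0.13 for complex I, -0.17 for complex III and -0.23 for complex V, and with quantile normalization -0.24 for complex III. For complex IV it was -0.17 with dim genes left out, which removes 2 genes. No median changed sign under any alternative run, and no called gene reversed. The causes of these shifts were not tested. Of the 80 members, 6 uncalled ones changed sign with quantile normalization, 5 with cyclic loess and 3 once the level trend was removed. Many of the 59 genes of the naming rule were not called in the main fit and had no call to lose. Of the called ones, up to 18 lost their call when a single array was left out, which is most of them. Without hBD-2 replicates 3 and 4 together 20 did. Uqcrb, Ndufv3, Cox6b2, Mgarp, Higd1a, Bnip3 and Bnip3l kept theirs whichever single array was left out. With 4 arrays a group, the test found 42% of 1.5-fold changes in simulated data with fewer changed genes than were called here. That share may differ in the data, where 3 of the 80 members reached 1.5-fold.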
